A study of Mus musculus with 15 samples.

Results

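Microglia are the resident macrophages of the brain, and 9 genes that mark them were followed here across nuclei sorted from the mouse ventral tegmental area: Csf1r, Cx3cr1, P2ry12, Tmem119, C1qa, C1qb, C1qc, Ctss and Aif1. They are chosen by symbol, and all 9 were found among the 35976 genes of the deposited count table. All 9 passed the filter on low counts in the fit of the populations and in that of the stages.

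The study set dopaminergic nuclei of mice that had worked for food or for cocaine beside non-dopaminergic nuclei of the same region. All mice were male heterozygous DAT-Cre animals (B6.SJL-Slc6a3tm1.1(cre)Bkmm/J) of 8 to 12 weeks, in which Cre recombinase is made by cells that use the dopamine transporter gene. All received AAV5-DIO-KASH-HA in the ventral tegmental area, a virus that needs Cre to label the nuclear envelope with an HA tag, and 14 days were left for it to act. Each sample joined tissue punches of 2 mice, and nuclei were sorted into HA-positive (labelled dopaminergic, DA) and HA-negative (labelled non-dopaminergic, nDA) populations. The groups were dopaminergic nuclei after operant food training alone, in sessions spread over 7 days (FT, n = 4), after food training and cocaine self-administration in 1-hour sessions (5 days with 0.3 mg/kg in each infusion, then 10 days with 1.0 mg/kg) (maintenance, MN, n = 3), and after the same schedule followed by 21 days of abstinence in the home cage (labelled craving, CRV, n = 4). The fourth group was non-dopaminergic nuclei after food training (n = 4). The HA tag marks only cells that took up the virus, and HA-negative nuclei were not selected for being neuronal, although both populations carry the label neuronal.

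Microglia depend on CSF1R, the receptor for the growth factors CSF1 and IL-34, and they read the neuronal chemokine CX3CL1 through CX3CR1 and released nucleotides through P2RY12. TMEM119 is a membrane protein that sets microglia apart from most other macrophages. The products of C1qa, C1qb and C1qc join into C1q, which starts the classical complement pathway and tags synapses and debris for removal, Ctss encodes the lysosomal protease cathepsin S, and Aif1 encodes the actin-binding protein IBA1 that is widely used to stain microglia.

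The 3 C1q genes are neighbours on chromosome 4 of GRCm38.p6, at chr4:136895916-136898844 (C1qa), chr4:136880126-136886200 (C1qb) and chr4:136889801-136892936 (C1qc). RefSeq promoters on that build were at hand for 6 of the 9 members. The 250 bases before the start that the promoter table uses were searched on both strands for GAGGAA. The myeloid transcription factor PU.1 (Spi1) binds this core. The search was made after most members were seen to fall in these data, so its count is a description. The core was found in 4 of the 6, against 7639 of 32851 promoters in the table (23.3%). Aif1, among the 4, did not fall between the populations. Cx3cr1 and P2ry12, which fell, had no match in this window. The windows of the 3 genes with a match that fell are given here 5′ to 3′ on the gene's strand, with the match in capitals (TTCCTC where it is on the opposite strand). It begins 30 bases before that start for C1qb, 193 for C1qc, 164 for Ctss and 7 for Aif1. For C1qc and Aif1 that start lies inside the gene's span, which holds the match of Aif1. The windows are chr4:136886201-136886450 (minus strand) for C1qb, chr4:136892915-136893164 (minus) for C1qc and chr3:95526536-95526785 (plus) for Ctss.
C1qb: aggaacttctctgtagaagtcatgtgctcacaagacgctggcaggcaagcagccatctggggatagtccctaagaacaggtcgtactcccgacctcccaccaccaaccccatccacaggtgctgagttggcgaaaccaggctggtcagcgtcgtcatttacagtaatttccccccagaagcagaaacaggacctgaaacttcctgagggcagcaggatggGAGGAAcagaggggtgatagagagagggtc
C1qc: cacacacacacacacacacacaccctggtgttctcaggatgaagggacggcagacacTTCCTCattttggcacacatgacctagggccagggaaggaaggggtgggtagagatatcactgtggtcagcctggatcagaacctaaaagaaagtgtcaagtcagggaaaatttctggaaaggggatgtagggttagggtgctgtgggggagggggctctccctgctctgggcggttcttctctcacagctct
Ctss: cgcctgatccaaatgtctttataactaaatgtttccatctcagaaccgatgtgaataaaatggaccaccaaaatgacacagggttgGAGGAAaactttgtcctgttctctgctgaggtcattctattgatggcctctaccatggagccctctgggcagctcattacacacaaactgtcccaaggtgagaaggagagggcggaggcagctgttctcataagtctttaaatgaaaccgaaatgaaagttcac
A match describes the letters of a window, and no factor's binding was measured. Whether PU.1 has a part in the members' difference was not tested.

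Library totals ranged from 25813697 to 59046618 counts, and members drew between 0 and 53348 counts in a library. Levels are given as CPM, counts brought to a common library size with TMM factors. As a check of the labels, the summed level of 9 dopamine neuron markers was 9012 ± 2426 CPM (SD, n = 4) in food-trained dopaminergic nuclei and 422 ± 76.3 CPM (n = 4) in non-dopaminergic nuclei. The HA-negative nuclei also held 16119 ± 5670 CPM of 12 oligodendrocyte markers, against 2205 ± 188 CPM of 7 pan-neuronal markers, although they carry the label of non-dopaminergic neurons. The dopaminergic libraries of food-trained mice held 1789 to 2861 CPM of the same oligodendrocyte markers. For the member genes, 3 libraries stood apart within their groups. Non-dopaminergic replicate 2 was 3.29 times the mean of the other 3 for Ctss and between 1.78 and 2.25 times for C1qa, C1qb, C1qc, P2ry12 and Aif1, but between 0.909 and 1.17 times for Csf1r, Cx3cr1 and Tmem119. Food-trained dopaminergic replicate 3 held 0 counts of Tmem119 and of Aif1, which allows up to 0.11 CPM of each by counting error alone. It had 0.266 times the others' mean of Ctss but 1.81 times their mean of Csf1r. Maintenance replicate 3 had a summed member level of 297.9 CPM, against 656.9 and 699.1 CPM in the other maintenance libraries.

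Dopaminergic and non-dopaminergic nuclei were first compared in food-trained mice, which asks how the sorted populations differ. Of the 9 members, 7 fell in dopaminergic nuclei at an adjusted p under 0.05 (quasi-likelihood test of edgeR) and none rose, against 9.17% of all 19786 genes tested that fell and 12.8% that changed either way. Those 7 were the receptors Csf1r, Cx3cr1 and P2ry12, the 3 C1q genes and Ctss. Each stood at 22.6% to 39.6% of its non-dopaminergic level. The median log2 fold change of the 9 members was -1.73, beside -0.21 for all genes tested. In 8 of the 9 members every dopaminergic library was below every non-dopaminergic one, which held for 19.1% of all genes tested. Sorted nuclei were measured in bulk, so that fewer microglial nuclei and less RNA per nucleus cannot be told apart.

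Among the receptors, P2ry12, the nucleotide receptor of resting microglia, stood at 152.1, 308.7, 169.5 and 132.9 CPM in the non-dopaminergic libraries and at 42.3, 52.2, 43.7 and 36.5 CPM in the food-trained dopaminergic ones. The dopaminergic libraries lay close together and the non-dopaminergic ones did not overlap them, with replicate 2 the highest. Its difference was -2.15 on the log2 scale, with an SE of 0.29 and an edgeR adjusted p of 0.00581. Cx3cr1, the chemokine receptor, was at 279.9, 266.9, 324.4 and 227.2 CPM in non-dopaminergic and at 100.8, 95.2, 44.2 and 71.7 CPM in dopaminergic libraries. Its groups were well apart, and the log2 difference was -1.84, with an SE of 0.27 and an edgeR adjusted p of 0.0067. Csf1r, the growth factor receptor, was at 287.7, 248.8, 290.7 and 242.9 CPM in non-dopaminergic and at 112.0, 87.3, 149.4 and 47.8 CPM in dopaminergic libraries. Here replicate 3, low for most other members, was the highest dopaminergic library. For Csf1r the log2 difference was -1.46, with an SE of 0.31 and an edgeR adjusted p of 0.0138.

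Tmem119 stood at 195.9, 199.0, 174.6 and 140.6 CPM in the non-dopaminergic libraries and at 31.7, 94.7, 0 and 39.9 CPM in the dopaminergic ones. The groups did not overlap, but with 1 library at 0 the spread was wide: the log2 difference was -2.12 with an SE of 1.17 and an edgeR adjusted p of 0.32. Without dopaminergic replicate 3 it was -1.68 with an edgeR adjusted p of 0.0202.

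The C1q genes, whose products form 1 complex, had like fold changes. C1qb averaged 97.7 ± 39.5 CPM in dopaminergic nuclei against 319.6 ± 130.4 CPM in the other population (SD, n = 4 each), which is -1.73 on the log2 scale, with an SE of 0.39 and an edgeR adjusted p of 0.0178. C1qc averaged 102.5 ± 48.7 and 315.1 ± 107.2 CPM, a log2 difference of -1.64 with an SE of 0.39 and an edgeR adjusted p of 0.0221. C1qa was the lowest of the 3, at 47.9, 64.7, 28.8 and 42.7 CPM in dopaminergic and 101.9, 193.2, 82.4 and 80.3 CPM in non-dopaminergic libraries. Its log2 difference of -1.33, with an SE of 0.35 and an edgeR adjusted p of 0.0362, lost its call when non-dopaminergic replicate 1, 2 or 3 or dopaminergic replicate 1, 3 or 4 was left out, with estimates of -1.44 to -0.97 and edgeR adjusted p of 0.051 to 0.0807. C1qc lost its call without non-dopaminergic replicate 1 or 2 (-1.63 and -1.40, edgeR adjusted p 0.0578 and 0.0556), and C1qb kept its call in each of these fits.

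Ctss had the widest spread in non-dopaminergic nuclei. It stood at 432.8, 1105, 247.1 and 328.1 CPM there and at 179.3, 155.4, 42.3 and 143.4 CPM in food-trained dopaminergic nuclei. Replicate 2 of the first group was far above every other library, and replicate 3 of the second was the lowest. The log2 difference of -2.04, with an SE of 0.57 and an edgeR adjusted p of 0.046, became -1.40 without that non-dopaminergic replicate 2 (edgeR adjusted p 0.0991). It also missed the threshold without non-dopaminergic replicate 1 or 4 or without any 1 of the 4 dopaminergic libraries, with estimates of -2.23 to -1.72 and edgeR adjusted p of 0.0523 to 0.0865.

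Aif1 was the exception among the 9. It stood at 2.41, 7.52, 4.10 and 3.53 CPM in non-dopaminergic and at 9.69, 11.3, 0 and 4.89 CPM in dopaminergic libraries, so the groups overlapped. The estimate was 0.54 (SE 1.32, edgeR adjusted p 0.864), with 119 to 363 counts in the non-dopaminergic libraries, far fewer than for any other member. The count of 7 members past the threshold became 4 without non-dopaminergic replicate 1 and 4 without non-dopaminergic replicate 2. Cx3cr1 and P2ry12 kept their calls in every one of the 19 alternative fits run.

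**Figure D1:**
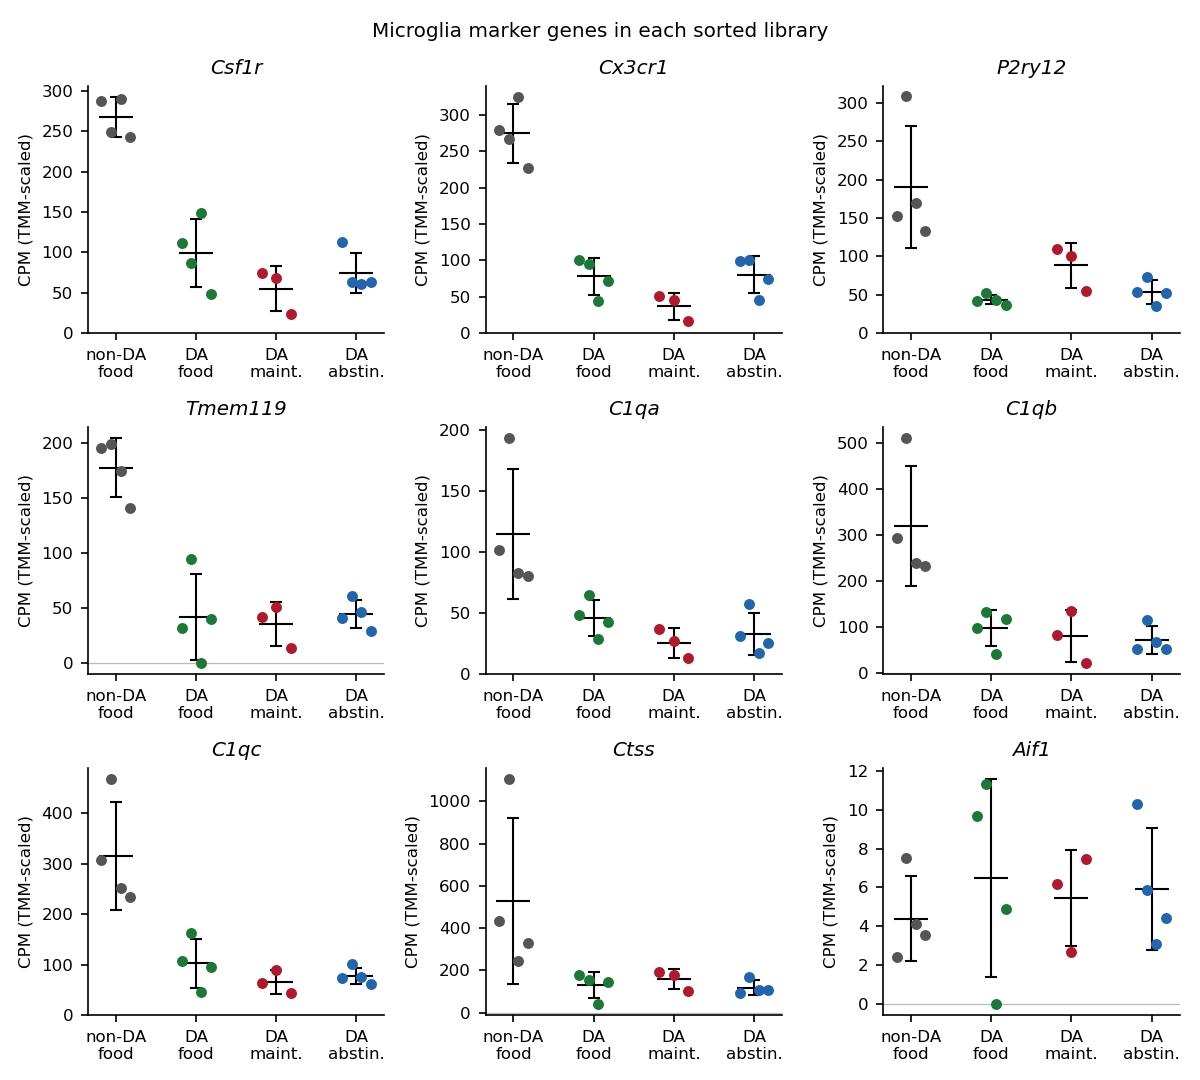
CPM (TMM-scaled, vertical axis, linear) of each member in every library, by group: non-dopaminergic food-trained (n = 4), dopaminergic food-trained (n = 4), maintenance (n = 3) and abstinence (n = 4). Points are libraries, horizontal bars are means and whiskers are SD. Aif1, below 12 CPM in all libraries, is the only panel in which the grey points do not lie above the green ones.

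**Figure D2:**
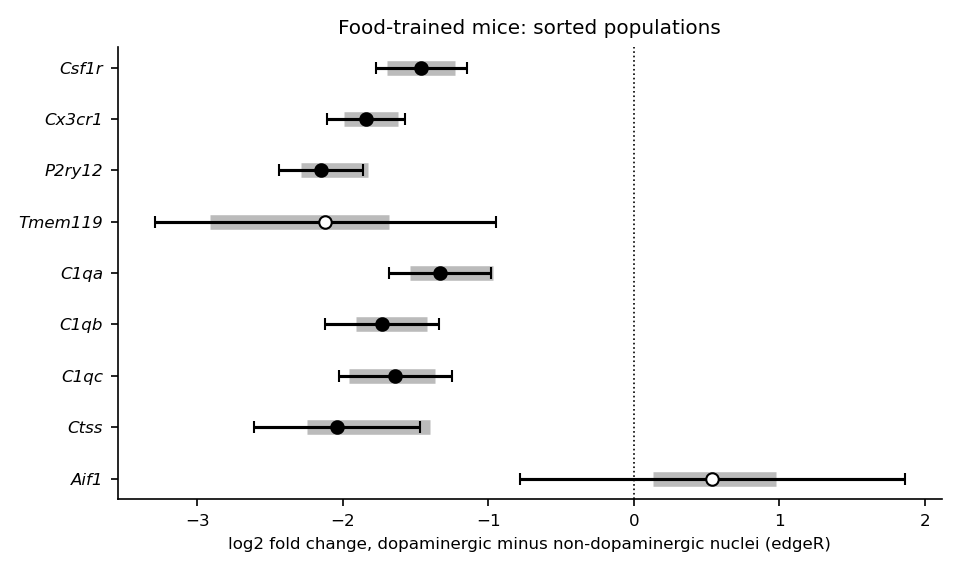
The edgeR log2 fold change of each member in food-trained mice, dopaminergic minus non-dopaminergic (horizontal axis), with whiskers of 1 SE and grey bands for the range over fits that leave out 1 library. Filled points passed an adjusted p under 0.05 (7 of 9). All bands except that of Aif1 lie below 0.

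Microglia genes outside the members were also described. All 19 of a list of other surface and signalling genes had lower estimates in dopaminergic nuclei, and 5 passed the threshold: Selplg, an adhesion ligand (40.7 ± 15.6 against 193.7 ± 65.7 CPM), Fcrls and Fcgr3, Fc-receptor family genes (11.6 ± 6.35 against 82.0 ± 32.3 CPM and 23.4 ± 7.54 against 97.1 ± 56.9 CPM), the lipid receptor gene Trem2 (15.8 ± 6.58 against 72.0 ± 40.8 CPM) and Dock8 (0.324 ± 0.382 against 14.6 ± 1.87 CPM). Dock8 was near 0 in the dopaminergic libraries and entered the test through the non-dopaminergic ones, so its call is a description. The median of the list was -2.21. Without dopaminergic replicate 2 or 3 the count was 8 or 10. Among 10 complement genes other than C1q, 10 had lower estimates and 3 passed: C1ra, C1s1 and C3, all with 0 counts in the 4 dopaminergic libraries. Allowing for counting error alone, they were at least 27.1-, 22.3- and 58.9-fold lower (floor of 3 counts per library). Such a bound leaves out the spread between libraries: Tmem119 had 0 counts in dopaminergic replicate 3 and 1817 to 3274 in the other food-trained dopaminergic libraries. These 3 entered the test only through the non-dopaminergic libraries, where they averaged 2.13, 1.75 and 4.63 CPM, so their count is a description. None of the 7 complement genes counted in both populations passed. Without dopaminergic replicate 3 the list's count was 5. Of 10 lysosomal genes, which many cell types use, the protease gene Ctsz fell (62.6 ± 9.92 against 193.1 ± 83.5 CPM) and the other 9 did not pass. Among them, Ctsb and Ctsd were at 2157 and 1268 CPM in dopaminergic and 1923 and 1174 CPM in non-dopaminergic nuclei, and the list's median was -0.21. Without dopaminergic replicate 2, 2 lysosomal genes passed.

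None of the 6 microglia transcription factors passed the threshold. Of the 6, 2 had higher and 4 lower estimates, with a median of -0.42. Among them Spi1, the gene of PU.1, was at 3.21 ± 4.87 against 7.53 ± 2.04 CPM (edgeR adjusted p 0.747). Of the 6, 1 passed without dopaminergic replicate 4. Of the 3 ligand genes, the CSF1R ligand gene Csf1 was at 20.1 ± 16.1 against 78.5 ± 29.2 CPM (edgeR adjusted p 0.172), and Cx3cl1, the neuronal ligand of CX3CR1, was at 775 ± 330 against 514 ± 265 CPM (edgeR adjusted p 0.542). None of the 3 passed, and 1 did without dopaminergic replicate 3. In a list of 8 genes of activated microglia, 7 had lower estimates and the median was -2.20. Past the threshold, the lipase gene Lpl rose, against the rest of the list (48.5 ± 6.68 against 17.2 ± 8.48 CPM) and the tetraspanin gene Cd9 fell (83.0 ± 6.13 against 334.6 ± 162.1 CPM). The count of 2 became 1 without non-dopaminergic replicate 1, 3 or 4 or dopaminergic replicate 1. Of 10 tested markers of border macrophages and blood leukocytes, 4 fell, Lyve1, Cbr2, Ccr2 and Cd3e, each with 0 counts in the dopaminergic libraries. Allowing for counting error alone, they were at least 29.8-, 8.18-, 43.1- and 22.4-fold lower. They too entered the test only through the non-dopaminergic libraries, where they averaged 0.643 to 3.39 CPM, and no marker counted in both populations passed.

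Markers of other non-neuronal cells fell beside the members in part. Lower and past the threshold were 7 of 12 oligodendrocyte markers (Mag and Hapln2 with the lowest p), 6 of 10 astrocyte markers (Slc1a3, Agt; Aldh1l1 at 47.5 against 32.6 CPM and Gfap at 219.4 against 214.9 CPM had higher estimates and did not pass), 1 of 6 oligodendrocyte precursor markers (Matn4) and 0 of 8 vascular markers. The vascular count was 1 without dopaminergic replicate 3 and 4 without replicate 4, and the precursor count ran from 0 to 2 over the fits without 1 library (0 without non-dopaminergic replicate 1, 3 or 4 or dopaminergic replicate 2, and 2 without dopaminergic replicate 4). All 9 dopamine neuron markers rose. Of 7 pan-neuronal markers, Syt1 rose (3076 ± 702 against 1111 ± 148 CPM) and Rbfox3 fell (45.3 ± 14.6 against 100.9 ± 7.03 CPM), and the count was 1 without non-dopaminergic replicate 1. The summed level of the 9 members in food-trained dopaminergic nuclei ranged from 395.5 to 856.4 CPM, with a mean 29.4% of the non-dopaminergic mean, or 35.4% when non-dopaminergic replicate 2 was left out. Beside it, oligodendrocyte markers stood at 14.6%, vascular markers at 19.1%, other microglia genes at 24.4%, astrocyte markers at 34.6% and oligodendrocyte precursor markers at 60.7%. Replicate 4 carries the vascular mean, since the 4 libraries stood at 3.19%, 4.78%, 8.56% and 59.8% of the non-dopaminergic mean. Most of the precursor sum in dopaminergic nuclei is Cspg5, at 186.4 ± 42.4 against 137.3 ± 13.9 CPM, while Pdgfra was at 3.82 ± 5.72 against 83.7 ± 30.9 CPM. How far these cell types share in the members' difference was not tested.

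**Figure D3:**
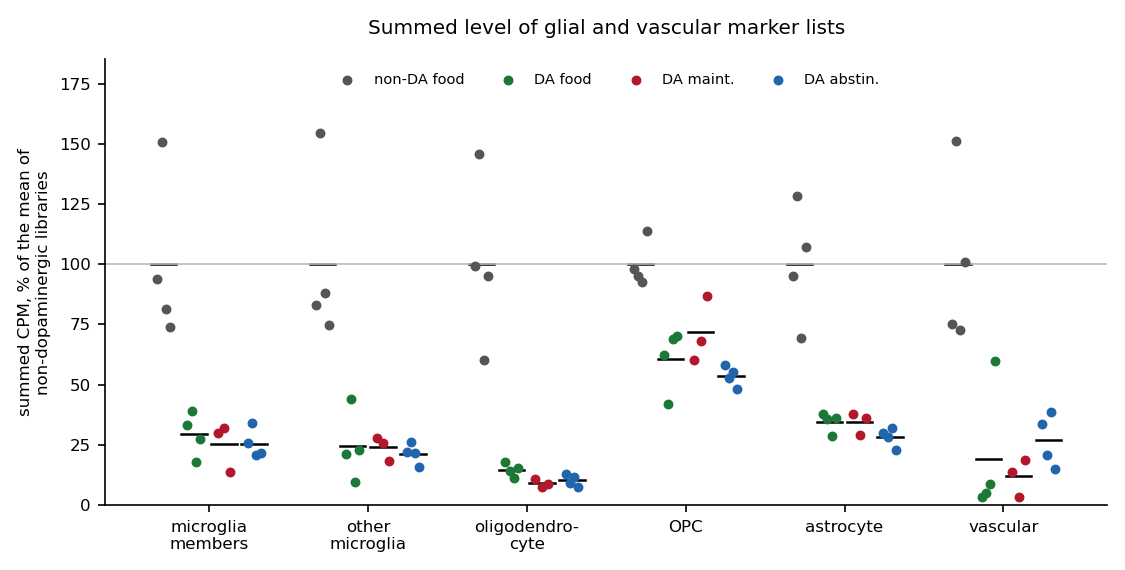
Summed CPM of 6 marker lists in every library as a percentage of the mean of the 4 non-dopaminergic libraries (vertical axis). Points are libraries by group, bars are group means, and OPC stands for oligodendrocyte precursor markers. In dopaminergic nuclei the members' means lie at 29.4% (food training), 25.1% (maintenance) and 25.5% (abstinence).

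Between stages of the schedule the dopaminergic nuclei were compared in 1 fit of their 11 libraries. None of the 9 members passed the edgeR threshold at maintenance against food training (0.131% of 19060 genes tested did), at abstinence against food training (0.0%) or at abstinence against maintenance (0.178%). DESeq2 called none of the 9 in any of these either. At an unadjusted edgeR p under 0.05 there were 2, 0 and 2 members, where all genes gave 11.6%, 4.3% and 9.92%. The stages share libraries in pairs, so the comparisons are given side by side and are not independent. The mean summed level of the members was between 551 and 645 CPM in the 3 dopaminergic groups.

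The 2 members at an unadjusted p under 0.05 at maintenance pointed in opposite directions. P2ry12 stood at 109.8, 100.2 and 54.9 CPM at maintenance, against 42.3, 52.2, 43.7 and 36.5 CPM after food training and 53.0, 72.9, 35.1 and 51.7 CPM at abstinence. Every maintenance library was above every food-trained one, which was so for 4.29% of all genes tested, while maintenance and abstinence overlapped. The log2 difference was 1.01 at maintenance against food training (SE 0.31, edgeR p 0.00622, adjusted p 0.289) and -0.73 at abstinence against maintenance (SE 0.31, edgeR p 0.0354, adjusted p 0.491). Cx3cr1 stood at 50.3, 45.0 and 15.9 CPM at maintenance and at 98.4, 100.4, 45.9 and 74.7 CPM at abstinence. Its maintenance range overlapped each of the others only through their replicate 3. The estimates were -1.08 (SE 0.43, edgeR p 0.0256, adjusted p 0.396) against food training and 1.11 for abstinence against maintenance (SE 0.43, edgeR p 0.0222, adjusted p 0.455).

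The other members lay within the spread of their groups. At maintenance Csf1r was at 74.0, 68.2 and 23.0 CPM and C1qa at 36.6, 26.8 and 12.8 CPM, with estimates of -0.85 and -0.86 against food training (edgeR adjusted p 0.481 and 0.521). Maintenance replicate 3 was the lowest of its group for 8 of the 9 members and the highest for Aif1. The estimates against food training were -0.65 for C1qc, -0.29 for C1qb, -0.25 for Aif1, -0.24 for Tmem119 and 0.29 for Ctss. At abstinence against food training the 9 estimates ran from -0.49 (C1qa) to 0.28 (P2ry12), with SE of 0.29 to 1.25, and the ranges of all 9 overlapped, where 3.32% of all genes tested had ranges apart. The median of the members was -0.29 at maintenance and -0.13 at abstinence, both against food training, beside -0.01 and 0.04 for all genes tested.

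The maintenance estimates were also set beside the base composition of the transcripts. P2ry12 and Ctss, the only members with a positive estimate, had the lowest GC content of their longest transcript, at 38.6% and 46.0%. The other 7 lay between 50.3% and 59.5%, and their estimates were not in the order of GC content. They were -1.08 for Cx3cr1 (50.3%), -0.24 for Tmem119 (59.1%) and -0.86 for C1qa (59.5%). Over 8174 genes, the slope of a library's log2 CPM, taken relative to the mean library, on transcript GC percent was -0.0378, -0.0226 and -0.038 at maintenance and -0.0247 in non-dopaminergic replicate 2. Those were the 4 lowest slopes of the 15, and the other 11 ran from -0.0166 to 0.0325. The ratio of P2ry12 to Csf1r in CPM was 1.48, 1.47 and 2.38 at maintenance and 1.24 in non-dopaminergic replicate 2. It was 0.529 to 0.583 in the other non-dopaminergic libraries, 0.293 to 0.764 after food training and 0.472 to 1.16 at abstinence. Against the mean of the other non-dopaminergic libraries, replicate 2 was at 2.04 times for P2ry12 and 3.29 times for Ctss. That library was also at 1.78 to 2.19 times for the C1q genes (57.4% to 59.5% GC) and at 1.17 times for Tmem119. With the GC slope removed from each library the maintenance estimate of P2ry12 was 0.63 (edgeR adjusted p 0.477). That of Cx3cr1 was -1.05 (edgeR adjusted p 0.412), close to its main estimate. All maintenance libraries are among those 4, so the stage and the slope cannot be told apart within dopaminergic nuclei.

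**Figure D4:**
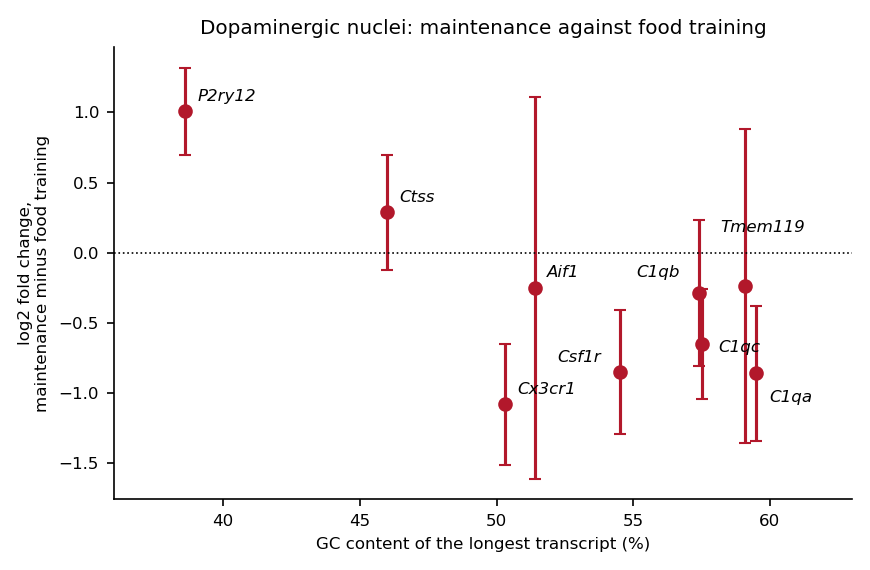
The edgeR log2 fold change of each member at maintenance minus food training (vertical axis, whiskers of 1 SE) against the GC content of its longest transcript in percent (horizontal axis). P2ry12 (38.6% GC) has the highest estimate, 1.01, and none of the 9 passed an adjusted p under 0.05.

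In no stage comparison did a gene of the other lists pass the edgeR threshold with all libraries in the fit. Among them, Cx3cl1, the ligand gene of CX3CR1, was at 280 ± 84.3 CPM at maintenance (n = 3), 775 ± 330 CPM after food training and 819 ± 441 CPM at abstinence (n = 4 each), with an estimate of -1.46 at maintenance against food training (SE 0.47, edgeR p 0.00804, adjusted p 0.305). Axl, a receptor tyrosine kinase gene in the list of activated microglia, had 0 counts in all 3 maintenance libraries and 20.1 ± 22.0 CPM after food training. Allowing for counting error alone, its mean was at least 268-fold lower at maintenance (floor of 3 counts per library, edgeR adjusted p 0.0976). Without food-trained replicate 2, 1 gene of that list passed at maintenance against food training and 1 at abstinence against maintenance. Axl and 3 other genes of the list had 0 counts in every maintenance library and entered these tests only through the other groups, so the bound and these counts are a description. The summed level of the 6 microglia transcription factors was 1.28 to 18.7 CPM at maintenance, 11.5 to 50.4 CPM after food training and 5.30 to 38.3 CPM at abstinence, against 53.3 to 72.1 CPM in non-dopaminergic nuclei. The 13 border macrophage and leukocyte markers summed to 20.7 to 29.5 CPM at maintenance and 5.21 to 22.0 CPM after food training, with 3 to 5 and 2 to 5 of them counted at all in a library. Of the 6 tested, 5 had higher estimates at maintenance and none passed. At maintenance and after food training alike, 6 of the 13 had 0 counts in every library, Ccr2, Ly6c2 and Cd3e among them in both. The part of border macrophages and leukocytes in the higher P2ry12 values was not tested.

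Per kilobase of the longest transcript, the members kept much the same order in all groups. In non-dopaminergic nuclei the highest levels were those of Ctss (389.9 ± 289.3 CPM per kb, SD, n = 4), C1qb (293.8 ± 119.8) and C1qc (261.9 ± 89.1), whose ranges overlapped. Next came C1qa (110.1 ± 51.3 CPM per kb), P2ry12 (81.4 ± 34.1), Tmem119 (79.2 ± 12.0), Cx3cr1 (61.1 ± 8.92) and Csf1r (56.9 ± 5.35), each overlapping its neighbour, and Aif1 was below all others at 5.02 ± 2.52 CPM per kb. In food-trained dopaminergic nuclei the level per kb ran from 96.0 ± 44.6 for Ctss to 7.40 ± 5.83 for Aif1, and no neighbours in the order were separated. P2ry12 was the sixth of the 9 after food training, at 18.6 ± 2.77 CPM per kb, and the fourth at maintenance, at 37.7 ± 12.5 CPM per kb, still overlapping C1qc above and C1qa below it.

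Outside the C1q cluster, the members lie apart from each other on GRCm38.p6, at chr18:61105572-61131139 (Csf1r), chr9:120048683-120068296 (Cx3cr1), chr3:59216271-59262985 (P2ry12), chr5:113793729-113800396 (Tmem119), chr3:95526786-95556405 (Ctss) and chr17:35170986-35176083 (Aif1). Reads of some members may be shared with genes that overlap them, since the use of strand in counting is not given in the sources used here. P2ry12 lies inside Med12l, on the opposite strand, with 9 of its 2546 exon bases shared. Med12l stood at 32.8 ± 12.2 CPM at maintenance (n = 3) and 61.4 ± 10.8 CPM after food training (n = 4), whereas P2ry12 stood at 88.3 ± 29.3 and 43.7 ± 6.48 CPM. Csf1r shares 873 of 5774 exon bases with Hmgxb3 on the opposite strand, which was at 60.9 ± 11.2 CPM in non-dopaminergic and 49.2 ± 6.99 CPM in food-trained dopaminergic nuclei.

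The genes whose levels followed the members most closely across the 15 libraries were Sepp1, Dync1li2, Sgk1, Sept4 and Lpcat2. Likeness was the root mean square distance between a gene's standardized log2 CPM and the members' mean profile, over 14646 genes with a mean of at least 20 counts. These 5 lay at 0.346 to 0.462, where the median gene lay at 1.29. Of the members themselves, C1qc was nearest to the mean profile (0.253) and Aif1 farthest (1.09). Sepp1, the gene of a secreted selenoprotein, averaged 371.9 ± 134.0 CPM in non-dopaminergic and 101.7 ± 50.7 CPM in food-trained dopaminergic nuclei. The profile turns mostly on the difference between the populations: over the 11 dopaminergic libraries alone, 0 of these 5 genes were among the 5 nearest.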

How the data were processed

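RNA of sorted nuclei was sequenced in 15 libraries made with a low-input cDNA kit. The authors deposited whole-number counts per gene, listed by symbol. The submitters' processing notes name Trim Galore 0.6.7, cutadapt 1.18, STAR 2.7.10a, StringTie 2.1.5, DESeq2 1.38.3 and the builds mm10 and GRCm38, with no role or order. A second deposited table, named as normalized, was not used. Counts carry no molecular identifiers, so limits cover counting error only, and p-values measure the spread between these pooled samples.

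Counts were filtered by filterByExpr, scaled by TMM and compared with edgeR 4.0.16's two-sided quasi-likelihood test, with Benjamini-Hochberg adjustment over all genes tested and a threshold of 0.05. The populations were compared in 8 libraries, the stages in 11. CPM used TMM factors of all 15 libraries. DESeq2 1.42.0, limma 3.58.1 voom, other scalings, filters, a replicate block, a GC correction and fits without each library were alternatives, and scripts were tested on simulated data. GC content and exon overlaps came from GENCODE M21 (26763 of 35976 symbols matched; 84.9% and 85.2% of the genes tested), promoters from RefSeq.

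The members and the lists were chosen with earlier results of these data known. The text names all members, up to 4 genes of lowest p from each list, and the 5 genes most like the members. Other genes (Dock8, Aldh1l1, Gfap, Spi1, the ligands, Ctsb, Ctsd, Rbfox3, Cspg5, Pdgfra, Ly6c2, S100a8, Cd163, Mrc1 and the overlapping genes) were named after their values were seen. The values of some list genes are not reported here.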

Additional observations from a re-analysis of the deposited data

Results flagged for a closer look

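Within the groups of 4 libraries, each member's CPM was checked for a library far from the others, in 27 sets of values (9 members in 3 groups). Only Csf1r at abstinence met the criterion: replicate 1 stood at 112.2 CPM, while the other 3 lay between 60.6 and 63.4 CPM. Its gap to the nearest library was 0.946 of the group's range, above Dixon's critical value for 4 libraries. Chance gives about 1 such library in 20 groups, so 1.35 in 27. Without this replicate Csf1r was not past the threshold in any stage comparison.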

How the results depend on the processing

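Of the 7 members that fell in dopaminergic nuclei, 4 to 6 passed in the fits without 1 library, 3 with a term for the 4 libraries of lowest GC slope (chosen after seeing the data, all 15 libraries in the fit) and 5 to 7 under the other alternatives. Since all maintenance libraries carry it, that term is estimated from non-dopaminergic replicate 2 alone, and its values restate how far that library stands apart. They are no test of GC content. With that term Csf1r, C1qa, C1qb and Ctss missed the threshold (edgeR adjusted p 0.0541, 0.175, 0.101 and 0.0667), and with the GC slope removed C1qa and C1qc did (0.109 and 0.0529). Every alternative kept 8 of the 9 members lower, except that Tmem119 and Aif1 were not tested with a minimum of 10 counts in every library. The number of members past the threshold stayed 0 in each stage comparison under all 21 alternatives.

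The labels do not say whether a number marks the same mice in both populations, and the main fits did not pair libraries by number. Same-numbered libraries of both populations had correlations of 0.035 to 0.087 in their deviations from the group means, the other pairs -0.06 to 0.061, and 3 of the 4 dopaminergic libraries correlated best with their own number, which is a hint from the data and not from the design. Same-numbered libraries of the stages had -0.082 to 0.038. With the replicate block 7 members still passed between the populations, while all genes past the threshold went from 2534 to 775, and Aif1 turned to -0.04. In the stage fit the replicate block turned Tmem119 (0.08) and Aif1 (0.25) at maintenance against food training, Ctss (0.01) and Aif1 (0.03) at abstinence against food training, and C1qb (0.11) and Aif1 (-0.22) at abstinence against maintenance.

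None of the members that changed sign elsewhere was past the threshold. The cause was not tested, apart from the GC term, whose sign changes follow from non-dopaminergic replicate 2 as above. At maintenance against food training they were Tmem119 (0.35) and Aif1 (0.57) with limma-voom, Tmem119 (0.02) with the GC slope removed, and P2ry12 (-0.01) and Ctss (-1.43) with the GC term. At abstinence against food training they were Cx3cr1 with RLE scaling (-0.00), DESeq2 (-0.00) and limma-voom (-0.11), Aif1 (0.45) with limma-voom and Tmem119 (-0.02) with the GC slope removed. At abstinence against maintenance they were C1qb (0.39) and Aif1 (-0.12) with limma-voom, Tmem119 (-0.05), C1qa (-0.03) and C1qc (-0.07) with the GC slope removed, and P2ry12 (0.30), C1qb (0.84) and Ctss (1.30) with the GC term. Leaving out 1 library, estimates at maintenance against food training ran from -0.66 to 0.14 for Aif1, -0.92 to 0.16 for C1qb, -0.00 to 0.52 for Ctss and -0.66 to 0.53 for Tmem119. At abstinence against food training they ran from -0.55 to 0.27 for Aif1, -0.42 to 0.07 for Ctss, -0.16 to 0.22 for Cx3cr1 and -0.33 to 0.88 for Tmem119. At abstinence against maintenance they ran from -0.30 to 0.42 for Aif1, -0.04 to 0.73 for C1qa, -0.60 to 0.47 for C1qb and -0.07 to 0.71 for Tmem119.

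Counts of all genes past the threshold moved by over 1.5 times in several fits: between the populations 1643 with at least 10 counts in every library, 3883 with DESeq2, 4266 with limma-voom and 965 with the GC term; at maintenance against food training, 25 became 109, 992, 9 and 0, and 0 with the replicate block; at abstinence against maintenance, 34 became 69 with at least 10 counts, 792 with DESeq2, 22 with upper quartile scaling, 15 with all 15 libraries, 2 with the replicate block and 1 with the GC term. DESeq2 called 145 genes at abstinence against food training. Without 1 library these counts ran from 1900 to 3740 between the populations, 5 to 78 at maintenance against food training and 6 to 73 at abstinence against maintenance. With 3 maintenance samples, SE of 0.31 to 1.36 on the log2 scale limit what the stage comparisons can show.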
